A study of Mus musculus with 13 samples.

Results

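The genes described here are the ephrins, their Eph receptors, the semaphorins, and the plexins and neuropilins that receive semaphorins, in differentiating female mouse embryonic stem cells (mESCs). They were taken by symbol from a table of 25965 genes, and 53 genes matched. These were 5 ephrin-A, 3 ephrin-B, 9 EphA, 5 EphB, 20 semaphorin, 9 plexin and 2 neuropilin genes. All 53 were protein coding, and 43 of them were expressed highly enough to be tested.

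Eph receptors are receptor tyrosine kinases whose ephrin ligands are tethered to the neighbouring cell, so that signalling needs contact and can run into both cells. Ephrin-A ligands are held in the membrane by a lipid anchor and mostly bind EphA receptors, whereas ephrin-B ligands span the membrane and mostly bind EphB receptors. Class 3 semaphorins are secreted and mostly act through a neuropilin joined to an A-type plexin, while the other vertebrate semaphorins are membrane-bound or lipid-anchored and mostly bind plexins directly. These families repel or attract migrating cells and axons, act on the actin cytoskeleton, and set tissue boundaries in the early embryo.

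RNA was sequenced from 13 libraries of female F1 mESCs with an FVB/NJ mother and a CAST/EiJ father, and the study asked what loss of Smarcc1, which codes for a scaffold protein of the chromatin remodeller BAF, does while these cells differentiate. Cells were expanded in 2i medium and differentiated without direction by weaning into DME HiHi medium, and 1 library (Day0) was undifferentiated. The 12 others carried a virally delivered short hairpin from day 2 and were selected with puromycin from day 3: the nonsilencing control Nons, or the hairpin Smarcc1.6 or Smarcc1.7 against Smarcc1, each with 1 library on days 4, 5, 6 and 7. Day0 thus lacked hairpin, virus and selection, every group shared 1 genetic background, and nothing in the sources states that days or hairpins were separate cultures, so the p-values below measure the spread between these libraries.

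The hairpin targets are shown because each hairpin comparison rests on them. Both Smarcc1 targets matched transcripts of 1 gene only, Smarcc1, and the Nons sequence matched 0 annotated mouse transcripts. In the transcript of 28 exons used here, the Smarcc1.6 target lay in the coding part of exon 13 (mm10 chr9:110177472-110177493, plus strand) and the Smarcc1.7 target in the coding part of exon 11 (chr9:110173911-110173932). The target sequences, 5′ to 3′ and 22 bases each, were:
Smarcc1.6: gcaggatgaagaagcagttaca
Smarcc1.7: tcagaaggaagaagatgagcaa
Nons: ctctcgcttgggcgagagtaag

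Smarcc1 itself was checked first. Its level in log2 CPM (the log2 of a gene's reads after scaling to a common number of mapped reads) was 8.01 at Day0. On days 4, 5, 6 and 7 it was 9.10, 8.87, 8.28 and 7.89 with Nons, 7.42, 7.40, 7.28 and 7.28 with Smarcc1.6, and 7.96, 7.78, 7.17 and 7.51 with Smarcc1.7. It was lower than in Nons of the same day in 8 of 8 comparisons, by 0.38 to 1.68 on the log2 scale, and the mean difference left 48.0% of the Nons level (limma, adjusted p = 0.00232). Depth ran from 13993440 to 63548093 mapped reads, at which 3 reads correspond to -2.22 and -4.40 log2 CPM. The share of reads that fell in genes was 85.3% to 86.5% for Day0 and the day 6 libraries, and 91.6% to 92.6% for the remaining 9. Groups were therefore compared within a day. Changes with day were also fitted without day 6, as given below, and what this split does to them was not tested further. The pluripotent markers fixed for the mESC label (Pou5f1, Nanog, Zfp42, Klf4, Esrrb and Dppa3) all had reads at Day0 and summed to 3849 CPM there, against 1066 to 2249 CPM in the 12 later libraries.

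Per kb of exon, the scale on which genes can be set side by side, Epha2, Plxna1 and Plxnb2 had the highest mean levels of the 53 genes. Epha2, a receptor abundant in early epiblast and epithelia, averaged 4.79 log2 CPM per kb over the 12 libraries. Plxna1, a co-receptor for secreted semaphorins, averaged 4.60, and Plxnb2, a receptor for class 4 semaphorins, averaged 3.78 log2 CPM per kb. The highest ligands were Efnb2, at 3.34 log2 CPM per kb, and Sema4d, at 3.27. The leading EphB receptor was Ephb4, the preferred receptor of ephrin-B2, at 3.38 log2 CPM per kb, and the leading ephrin-A was Efna4 at 2.67. Sema3e led the secreted semaphorins at 2.36, followed by Sema6a at 1.16, Nrp2 at 1.01, Sema7a at 0.34 and Sema5b at -0.94 log2 CPM per kb as leaders of their classes. The ranges over the 12 libraries overlapped between each named gene and the next in this order, as the plot of levels per kb shows.

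**Figure D1:**
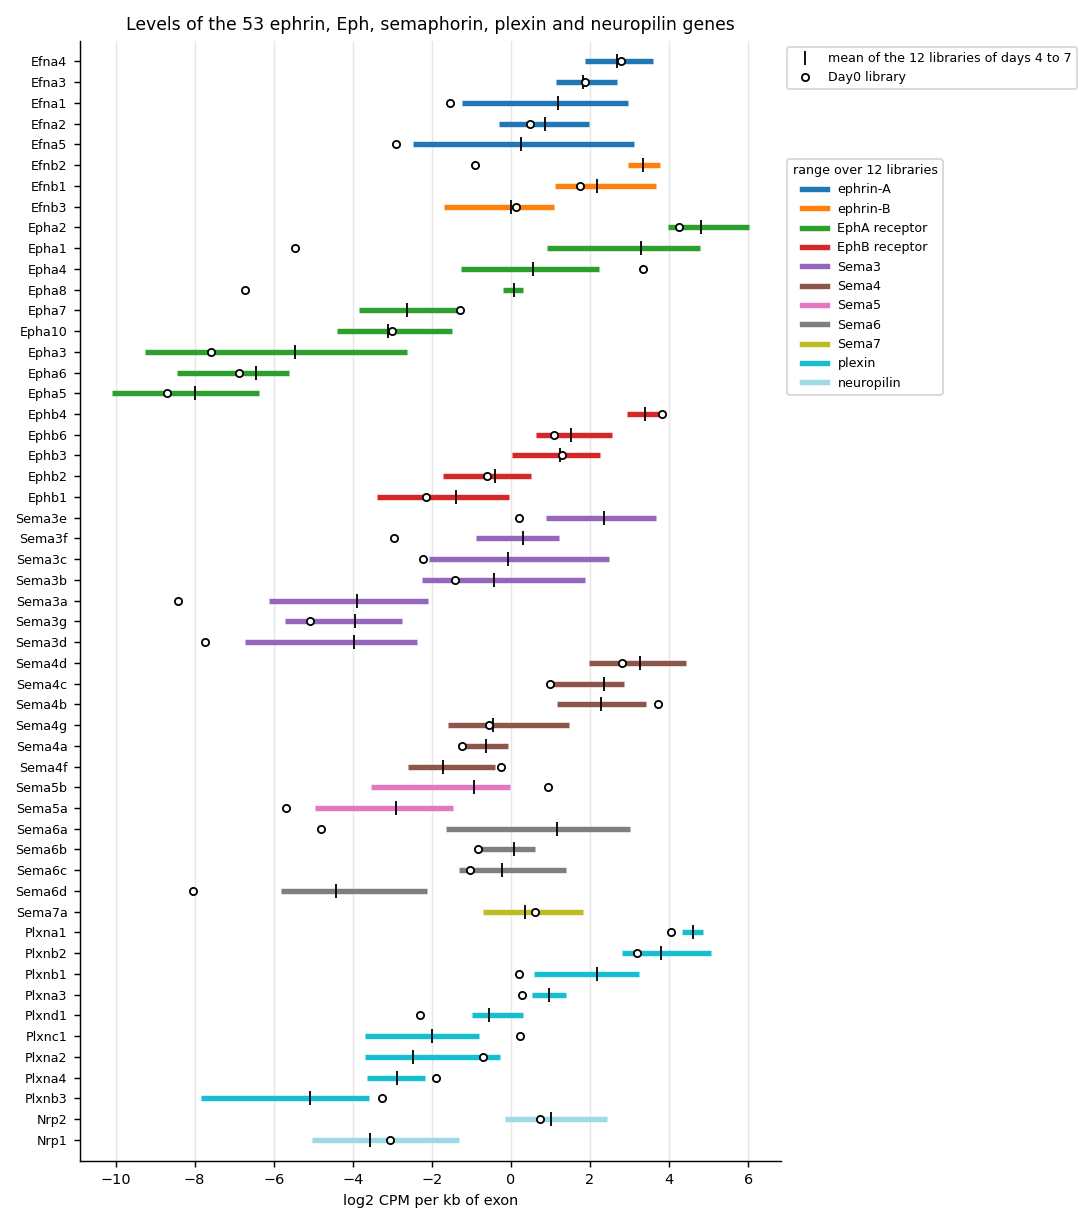
Levels of the 53 genes in log2 CPM per kb of exon, grouped by class. Coloured bars run from the lowest to the highest of the 12 libraries of days 4 to 7, ticks mark their mean and open circles the Day0 library. The means of Epha2 and Plxna1 lie at 4.79 and 4.60, and Day0 lies far to the left of the bar for Epha1, Epha8, Sema6a and Efnb2.

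The 10 genes left untested had a mean below 0 log2 CPM. They were the EphA receptors Epha3, Epha5, Epha6 and Epha10, the secreted semaphorins Sema3a, Sema3d and Sema3g, and Sema6d, Plxnb3 and Nrp1. Nrp1, the co-receptor through which Sema3a acts, had between 9 and 117 reads in the 12 libraries. Epha5 had 10, 7, 7 and 6 reads with Nons on days 4 to 7, 4, 1, 3 and 0 reads with Smarcc1.6, and 3, 0, 0 and 1 reads with Smarcc1.7. Every Nons library thus had more Epha5 reads than either knockdown library of its day, and 7 of the 8 knockdown libraries were at or under the counting floor of 3 reads. Plxnb3, which is X-linked, had 22, 3, 1 and 0 reads with Nons, 22, 9, 20 and 13 with Smarcc1.6, and 13, 3, 13 and 18 with Smarcc1.7. Scaled to depth, both hairpins lay below Nons for Plxnb3 on day 4 and above it on days 5, 6 and 7. With no filter on low values, the knockdown difference passed the test for Epha5 (adjusted p = 0.0123) and Plxnb3 (adjusted p = 0.0264), values that depend on the 0.9 reads written in place of 0.

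The undifferentiated library was set beside Nons of day 6, which had a like share of reads in genes. There was 1 library on each side, so this comparison has no replicate check and no test. Of the 43 tested genes, 21 lay more than 1 log2 unit higher on day 6 (48.8%, against 21.2% of all tested genes) and 7 lay more than 1 unit lower (16.3%, against 11.8%). Genes were filtered on the 12 later libraries and not on Day0. A gene with few reads at Day0 could thus enter, while a gene high at Day0 alone could not. This tilts the counts toward higher, among the 43 and among all tested genes. Epha1, an epithelial Eph receptor, had 2 reads at Day0 and 3771 in Nons of day 6. Epha8, a receptor best known from neural tissue, had 1 read at Day0 and 179 on day 6. Efnb2, the ligand that marks arterial endothelium and somite boundaries, stood at 1.86 log2 CPM at Day0 and between 5.75 and 6.54 in the 12 later libraries. Day0 lay below every later library for Epha1, Epha8 and Efnb2. In the other direction, Epha4, a receptor that binds ephrins of both kinds, stood at 6.36 log2 CPM at Day0 and between 1.74 and 5.25 later, so that Day0 lay above all 12. Day0 and later libraries also differ in medium, virus and selection, which cannot be told apart from time here.

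Between days 4 and 7, 29 of the 43 tested genes changed with day in the 3 groups together (67.4%, against 60.5% of all 13406 tested genes, limma with group as a covariate). The direction was uneven, with 25 rising (58.1%, against 34.9% of all tested genes) and 4 falling (9.30%, against 25.6%). The median slope was 0.34 log2 CPM per day over the 43 genes and 0.04 over all tested genes. In bulk RNA, more cells of a type and more RNA per cell cannot be told apart. With each library shifted to a common autosomal median, which lowered each slope by 0.09, 21 rose and 5 fell among the 43, while 26.7% of all tested genes rose and 35.3% fell. In the 4 Nons libraries alone, 8 of the 43 passed (18.6%, against 12.1% of all tested genes), with 6 rising (against 7.18%) and 2 falling (against 4.9%). Of the 29 calls, 19 were kept without any 1 day and without any 1 library. The other 10 were lost without at least 1 day (Epha7, Plxna2, Plxnb1, Plxnd1, Sema4c, Sema4f, Sema5a, Sema5b, Sema6a and Sema6b), and Plxna2, Sema4c, Sema4f and Sema5b also without single libraries. With day 6 left out, 29 of the 43 genes passed (against 62.4% of all tested genes), 25 rising and 4 falling.

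All 5 ephrin-A ligands rose, with slopes from 0.39 (Efna3) to 1.76 (Efna5) log2 CPM per day. Efna5, a ligand that repels axons in topographic maps, stood at -0.89 log2 CPM at Day0. On days 4, 5, 6 and 7 its levels were 0.33, 1.89, 4.04 and 4.63 log2 CPM with Nons, -0.47, 0.81, 3.13 and 4.65 with Smarcc1.6, and -0.20, -0.35, 3.64 and 5.13 with Smarcc1.7. Levels of days 6 and 7 lay above those of days 4 and 5 in each group, without overlap (slope 1.76, SE 0.17, adjusted p = 1.13e-05). Efna1, the main ligand of EphA2, stood at -0.67 log2 CPM at Day0. It ran through -0.37, 1.81, 2.78 and 3.62 log2 CPM with Nons, 0.01, 1.74, 2.81 and 3.42 with Smarcc1.6, and 0.14, 1.97, 3.04 and 3.82 with Smarcc1.7. It was higher on each day than on the day before in all 3 groups (slope 1.21, SE 0.10, adjusted p = 4.25e-06). The 3 ephrin-B ligands did not pass, with slopes between -0.06 and 0.30 log2 CPM per day. Efnb2 stayed within 5.75 to 6.54 log2 CPM throughout, with a slope of -0.06 (SE 0.06, adjusted p = 0.425).

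Among the receptors for ephrins, 2 of 5 tested EphA genes and 3 of 5 EphB genes rose, and none passed as falling. Epha1 had the steepest slope among the Eph receptors, at 0.94 log2 CPM per day (SE 0.15, adjusted p = 0.000303), and Epha7 rose by 0.50 per day (SE 0.12, adjusted p = 0.00544). Without day 4 the slope of Epha1 was 0.39 (still passing) and that of Epha7 was 0.16 (adjusted p = 0.367), and without day 7 they were 1.43 and 0.79. Epha2 had a slope of 0.20 (SE 0.12, adjusted p = 0.188), and Epha4 a slope of -0.45 log2 CPM per day (SE 0.22, adjusted p = 0.101). Ephb2, Ephb3 and Ephb4 rose by 0.44, 0.49 and 0.28 log2 CPM per day. Slopes of the other EphB receptors, Ephb1 and Ephb6, were 0.30 and 0.24 log2 CPM per day and did not pass.

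All 4 tested secreted semaphorins rose, by 0.54 (Sema3f) to 1.36 (Sema3b) log2 CPM per day. Sema3b, first known as a candidate tumour suppressor, stood at 0.84 log2 CPM at Day0. Its levels on days 4 to 7 were 0.10, 0.59, 2.90 and 3.95 log2 CPM with Nons, 0.14, 0.63, 2.30 and 3.78 with Smarcc1.6, and 0.02, 0.65, 2.62 and 4.11 with Smarcc1.7. Levels of days 6 and 7 lay above those of days 4 and 5 in each group, and the 6 libraries of days 4 and 5 were all below Day0 (slope 1.36, SE 0.10, adjusted p = 2.94e-06). Sema3c, which guides neural crest cells into the cardiac outflow tract, stood at 0.61 log2 CPM at Day0. It reached 1.22, 1.91, 3.86 and 4.17 log2 CPM with Nons, 0.77, 1.75, 3.36 and 4.61 with Smarcc1.6, and 0.88, 1.52, 3.62 and 5.30 with Smarcc1.7. Day 7 was the highest day for Sema3c in all 3 groups (slope 1.31, SE 0.10, adjusted p = 4.19e-06). Sema3e, the ligand of plexin-D1, rose by 0.86 log2 CPM per day (SE 0.09, adjusted p = 1.46e-05), and Plxnd1 rose by 0.25 (SE 0.07, adjusted p = 0.0118).

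**Figure D2:**
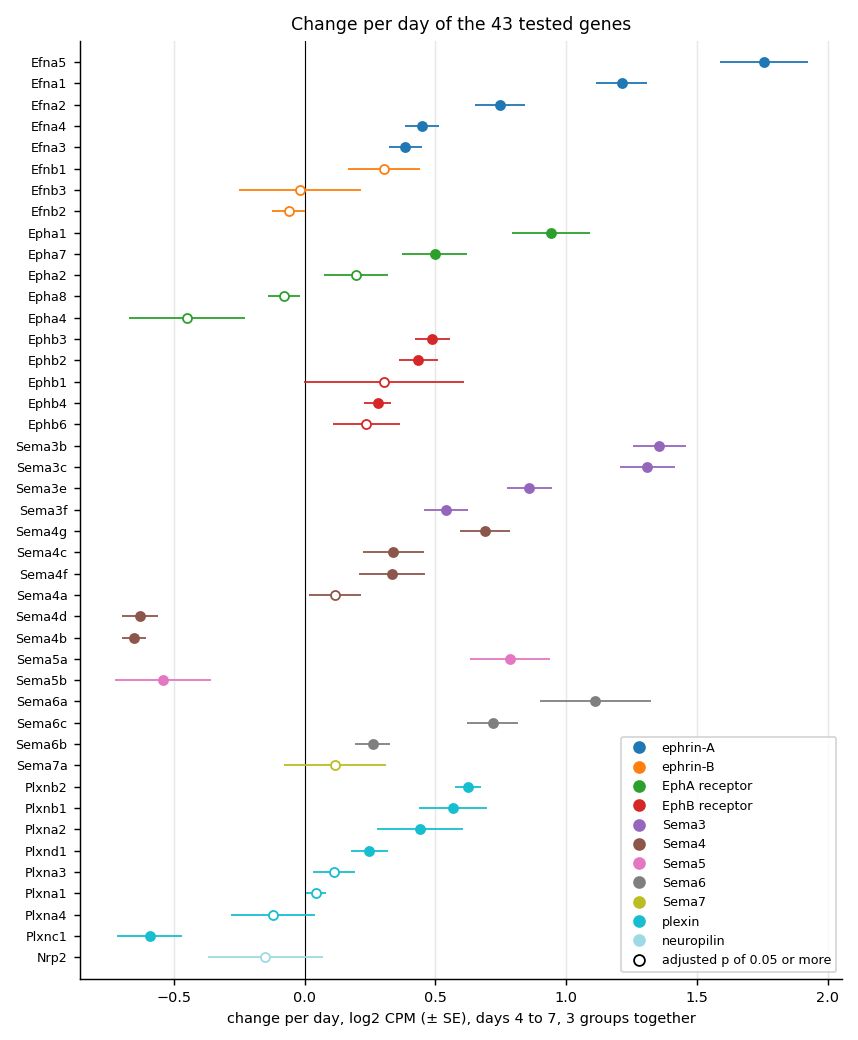
Fitted change per day in log2 CPM, with its SE, for the 43 tested genes over days 4 to 7 and the 3 groups together. Filled points had an adjusted p under 0.05 and open points did not. All 5 ephrin-A and all 4 class 3 semaphorin points lie to the right of 0, and the 4 falling genes are Sema4b, Sema4d, Plxnc1 and Sema5b.

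The membrane-bound semaphorins went in both directions. Of the 6 class 4 genes, Sema4c, Sema4f and Sema4g rose by 0.34 to 0.69 log2 CPM per day, Sema4b and Sema4d fell, and Sema4a did not pass. The call for Sema4f was lost without day 5, without day 7 and without 7 of the 12 single libraries, with slopes down to 0.03 (adjusted p between 0.0514 and 0.907). The call for Sema4c was lost without day 4 or day 6 and without 4 of the 12 single libraries, with slopes down to -0.01 (adjusted p between 0.0515 and 0.944). Sema4b stood at 6.21 log2 CPM at Day0. On days 4 to 7 it stood at 5.69, 4.90, 4.19 and 3.67 log2 CPM with Nons, 5.86, 5.27, 4.48 and 3.94 with Smarcc1.6, and 5.91, 5.05, 4.18 and 4.11 with Smarcc1.7. It was lower on each day than on the day before in all 3 groups (slope -0.65, SE 0.05, adjusted p = 2.03e-06). Sema4d, the ligand of plexin-B1, stood at 5.75 log2 CPM at Day0. Its levels were 7.36, 6.21, 5.53 and 4.91 log2 CPM with Nons, 6.84, 6.89, 6.00 and 5.37 with Smarcc1.6, and 7.14, 6.87, 5.78 and 5.66 with Smarcc1.7. Day 4 was above Day0 and day 7 below it in all 3 groups (slope -0.63, SE 0.07, adjusted p = 2.43e-05).

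The class 5 semaphorins, which carry thrombospondin repeats, split. Sema5a rose by 0.78 log2 CPM per day (SE 0.15, adjusted p = 0.00118) and Sema5b fell by 0.54 on the same scale (SE 0.18, adjusted p = 0.0248). Without day 4 the slope of Sema5a was 0.37 and did not pass (adjusted p = 0.161). Sema5b stood at 3.77 log2 CPM at Day0, then at 2.81, 2.26, 1.73 and -0.72 with Nons, 2.07, 2.59, 2.41 and 0.88 with Smarcc1.6, and 2.16, 2.34, 2.37 and 1.68 with Smarcc1.7. Day 7 was the lowest day in each group, and Nons of day 7 was the lowest library. The fall of Sema5b rested on day 7, since without that day its slope was -0.09 (adjusted p = 0.611). Its call was also lost without day 5 (adjusted p = 0.0820), without Nons of day 4 (0.0863) or day 7 (0.0622), and without Smarcc1.6 of day 7 (0.0755).

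All 3 tested class 6 genes rose. Sema6a, a ligand of plexins A2 and A4, stood at -1.67 log2 CPM at Day0. Its levels on days 4 to 7 were 3.59, 4.51, 6.13 and 4.99 log2 CPM with Nons, 1.49, 2.84, 5.65 and 5.70 with Smarcc1.6, and 2.03, 3.45, 5.82 and 5.27 with Smarcc1.7. Every later library lay above Day0 (slope 1.11, SE 0.21, adjusted p = 0.00107), and the call was lost without day 4 (adjusted p = 0.0743). Sema6a was the 1 gene of the 43 that stood at least 1 log2 unit off the mean of days 5 and 7 on day 6 in all 3 groups, as 559 of the 13406 tested genes did. Sema6b and Sema6c rose by 0.26 and 0.72 log2 CPM per day, and the call for Sema6b was lost without day 4 or day 7 (adjusted p between 0.0879 and 0.159).

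Of the receptors for semaphorins, Plxnb1, Plxnb2, Plxna2 and Plxnd1 rose by 0.25 to 0.63 log2 CPM per day and Plxnc1 fell. The call for Plxna2 was lost without day 5, without day 7 and without 8 of the 12 single libraries (adjusted p between 0.0501 and 0.655), and its slope ran from -0.08 without day 7 to 0.78. The call for Plxnb1 was lost without day 4 (slope 0.14, adjusted p = 0.402) and that for Plxnd1 without day 7 (slope 0.16, adjusted p = 0.192). Plxnc1, the receptor of Sema7a, stood at 3.28 log2 CPM at Day0. On days 4 to 7 it measured 2.26, 1.72, 1.03 and -0.64 log2 CPM with Nons, 1.40, 1.47, 1.07 and 0.06 with Smarcc1.6, and 1.44, 1.84, 0.68 and 0.52 with Smarcc1.7. Day0 lay above all 12 later libraries, and day 7 was the lowest day in each group (slope -0.59, SE 0.12, adjusted p = 0.00194), and its slope was -0.39 without day 7 (adjusted p = 0.0477). Sema7a had a slope of 0.12 log2 CPM per day (SE 0.20, adjusted p = 0.630). Plxna1 stayed within 7.51 to 8.03 log2 CPM over the 12 libraries (slope 0.04, SE 0.04, adjusted p = 0.331).

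**Figure D3:**
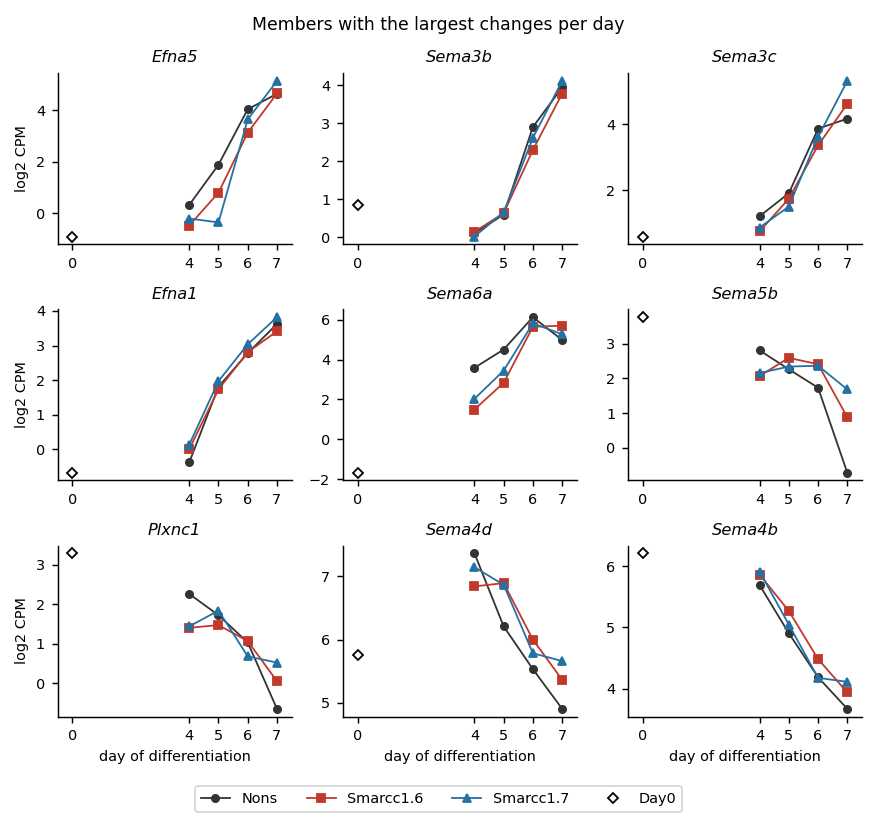
Levels in log2 CPM by day of differentiation for the 5 largest rises and the 4 falls, with Nons as black circles, Smarcc1.6 as red squares, Smarcc1.7 as blue triangles and Day0 as an open diamond. Each point is 1 library. Efna5 climbs from between -0.47 and 0.33 on day 4 to between 4.63 and 5.13 on day 7, whereas Sema4b goes from between 5.69 and 5.91 to between 3.67 and 4.11.

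Knockdown of Smarcc1 was then compared with Nons within each day. Of the 43 tested genes, 6 passed (14.0%, against 11.6% of all tested genes), a share near that of all tested genes. Epha1, Efna4, Plxnb1, Sema5a and Plxna2 fell (5 genes, 11.6% of the 43, against 4.77% of all tested genes) and Sema4f rose (2.33%, against 6.88%). The median difference was -0.10 log2 over the 43 genes and -0.01 over all tested genes. By class, the 5 lower genes were 1 EphA receptor, 1 ephrin-A, 2 plexins and 1 class 5 semaphorin, and 0 EphB, ephrin-B, class 3, 6 or 7 genes or neuropilins passed.

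The 100 bases before the start of these 6 genes are shown to place them, as RefSeq gives them for GRCm38.p6, which is the build mm10. Capitals mark the GC box GGGCGG and the CCAAT box CCAAT on either strand (CCGCCC and ATTGG in reverse), and overlapping matches were counted. The windows were chr6:42373269-42373368 (Epha1, minus strand), chr3:89338029-89338128 (Efna4, minus), chr9:109095336-109095435 (Plxnb1, plus), chr15:32244713-32244812 (Sema5a, plus), chr1:194619729-194619828 (Plxna2, plus) and chr6:82939770-82939869 (Sema4f, minus):
Epha1: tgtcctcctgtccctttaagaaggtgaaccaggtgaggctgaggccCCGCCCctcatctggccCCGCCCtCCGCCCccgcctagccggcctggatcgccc
Efna4: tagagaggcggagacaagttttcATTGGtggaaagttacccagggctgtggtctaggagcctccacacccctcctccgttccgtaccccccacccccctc
Plxnb1: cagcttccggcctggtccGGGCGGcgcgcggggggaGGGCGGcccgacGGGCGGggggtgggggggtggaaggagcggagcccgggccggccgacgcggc
Sema5a: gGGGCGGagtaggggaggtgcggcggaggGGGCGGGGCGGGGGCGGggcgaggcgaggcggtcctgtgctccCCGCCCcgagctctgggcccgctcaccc
Plxna2: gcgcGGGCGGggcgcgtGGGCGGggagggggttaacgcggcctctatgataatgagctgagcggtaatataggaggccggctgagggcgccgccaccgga
Sema4f: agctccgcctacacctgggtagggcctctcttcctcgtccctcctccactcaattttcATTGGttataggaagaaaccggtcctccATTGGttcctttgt

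In these windows Epha1, Plxnb1, Sema5a and Plxna2 held 3, 3, 5 and 2 GC boxes and no CCAAT box, and Efna4 and Sema4f held 1 and 2 CCAAT boxes and no GC box. Sequence was at hand for 47 of the 53 genes over 300 bases, 250 before and 50 after the start. There a GC box occurred in 36 of the 47 (76.6%, against 35.9% of 27025 genes), a CCAAT box in 16 (34.0%, against 37.9%) and TATAAA in 1 (2.13%, against 14.2%). The median window held 21 CpG dinucleotides and 64.3% G or C in the 47 genes, and 7 and 52.7% in all genes. The 27025 genes were not filtered by type or level and took their first listed start, so the sets are not alike. The 47 took the start nearest to their deposited coordinates, which lay up to 37064 bases away (Sema4d). A match is a description of letters and not a bound site.

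Epha1 was the gene of the 43 with the smallest p-value for knockdown. It stood at -3.48 log2 CPM at Day0. On days 4, 5, 6 and 7 it reached 3.85, 5.76, 6.74 and 6.50 log2 CPM with Nons, 3.15, 5.27, 5.87 and 6.20 with Smarcc1.6, and 2.89, 5.20, 5.85 and 5.88 with Smarcc1.7. Both knockdown libraries lay below Nons on each of the 4 days. The geometric mean of the 8 ratios was 62.6% of Nons (log2 difference -0.67, SE 0.09, adjusted p = 0.00235). The differences averaged -0.59 ± 0.25 with Smarcc1.6 and -0.76 ± 0.20 with Smarcc1.7 (SD, n = 4 days), and passed for each hairpin (adjusted p = 0.00657 and 0.00905). These hairpin tests shared 1 estimate of the spread over the 12 libraries. With Smarcc1.6 or Smarcc1.7 alone beside Nons, 0 of the 43 genes passed (against 0.425% and 0% of all tested genes), so Epha1 did not pass there. The joint call held without any 1 day or any 1 library, with adjusted p-values up to 0.0299. For single hairpins it was lost without day 5 or day 6 (adjusted p between 0.0514 and 0.0722 for Smarcc1.6, and between 0.0904 and 0.139 for Smarcc1.7), and for Smarcc1.7 also without its library of day 6 (0.0734).

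Epha1 ends tail to tail with Zyx, the gene of the focal adhesion protein zyxin, on the opposite strand of chromosome 6. Their spans share 1660 bases in the table, and 6.01% of the exonic bases of Epha1 are also exonic in Zyx. The strand setting of the counting was not given in the sources used here, so reads in the shared stretch cannot be told apart. Zyx was also below Nons in 8 of 8 comparisons (log2 difference -0.55, SE 0.12, adjusted p = 0.0167). Zyx rose by 0.91 log2 CPM per day, and at Day0 it had 33 reads where Epha1 had 2. The part of the overlap in either result was not tested. Antisense genes also covered 10.7% of the exonic bases of Plxna1, 7.27% of Sema4c and 2.68% of Plxnb1.

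Efna4, a ligand of EphA receptors, stood at 3.46 log2 CPM at Day0. Its levels on days 4 to 7 were 3.01, 3.30, 4.03 and 4.27 log2 CPM with Nons, 2.70, 2.66, 3.65 and 3.86 with Smarcc1.6, and 2.74, 2.55, 3.54 and 3.90 with Smarcc1.7. It was below Nons in 8 of 8 comparisons, at a geometric mean of 73.1% of the Nons level (log2 difference -0.45, SE 0.09, adjusted p = 0.0112). The differences were -0.44 ± 0.14 with Smarcc1.6 (adjusted p = 0.0352) and -0.47 ± 0.21 with Smarcc1.7 (SD, n = 4 days, adjusted p = 0.0531). The joint call was lost without day 5 (adjusted p = 0.0732), without day 6 (0.0758) and without Nons of day 5 (0.0584). The call for Smarcc1.6 was lost without any 1 of the 4 days and without 8 of the 12 single libraries (adjusted p up to 0.187). An antisense transcript, 4731419I09Rik, covers 10.5% of its exonic bases and was not listed in the table under that name.

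Efna4 lies beside Efna1 and Efna3 in a stretch of 66296 bases on chromosome 3. Efna1 differed from Nons by 0.16 (SE 0.14, adjusted p = 0.495) and Efna3 by 0.05 on the log2 scale (SE 0.12, adjusted p = 0.831). All 3 genes rose with day, and Efna4 passed against Nons. Whether Efna4 differed from its neighbours was not tested. An antisense gene, Gm15998, covers 14.1% of the exonic bases of Efna3, so that level is uncertain in the same way.

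Plxnb1, the receptor of Sema4d, stood at 3.45 log2 CPM at Day0. It ran through 4.65, 6.02, 6.49 and 5.81 log2 CPM with Nons, 3.84, 5.14, 6.06 and 5.88 with Smarcc1.6, and 3.97, 5.51, 5.97 and 5.83 with Smarcc1.7. Both hairpins lay below Nons on days 4, 5 and 6 and slightly above it on day 7, so 6 of 8 comparisons were lower. The mean difference was -0.47 (SE 0.12, adjusted p = 0.0259), with -0.51 ± 0.44 for Smarcc1.6 (adjusted p = 0.0437) and -0.42 ± 0.31 for Smarcc1.7 (SD, n = 4 days, adjusted p = 0.119). The joint call was lost without day 4, 5 or 6 (adjusted p between 0.0909 and 0.133), and without Nons of any of those days or Smarcc1.7 of day 6 (between 0.0511 and 0.125). The call for Smarcc1.6 alone was lost without day 4, 5 or 6 and without 10 of the 12 single libraries (adjusted p up to 0.279). Sema4d, its ligand, was higher than Nons in 6 of 8 comparisons but did not pass (log2 difference 0.32, SE 0.14, adjusted p = 0.169).

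Plxna2, a receptor of class 3 and class 6 semaphorins, stood at 3.40 log2 CPM at Day0. On days 4 to 7 it stood at 1.41, 1.65, 1.73 and 3.82 log2 CPM with Nons, 1.03, 1.38, 1.26 and 2.35 with Smarcc1.6, and 1.43, 0.72, 0.40 and 2.23 with Smarcc1.7. It was lower in 7 of 8 comparisons, with Smarcc1.7 of day 4 as the exception, and the gap was widest in size on days 6 and 7. The difference was -0.80 (SE 0.24, adjusted p = 0.0493), and neither hairpin passed on its own (-0.65 ± 0.55 and -0.96 ± 0.70, SD, n = 4 days, adjusted p = 0.167 and 0.0878). Its call was lost without day 5, 6 or 7 (adjusted p between 0.122 and 0.181) and without 9 of the 12 single libraries (between 0.0511 and 0.161). It was kept without Nons of day 4, Smarcc1.6 of day 5 and Smarcc1.7 of day 4.

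Sema5a stood at -1.48 log2 CPM at Day0. Its levels were 0.21, 2.05, 2.75 and 2.26 log2 CPM with Nons, -0.74, 0.40, 1.97 and 1.57 with Smarcc1.6, and -0.27, 1.19, 2.42 and 2.05 with Smarcc1.7. On each day the order was Nons, Smarcc1.7, Smarcc1.6, and 8 of 8 comparisons were lower (log2 difference -0.74, SE 0.21, adjusted p = 0.0439). The fall was -1.02 ± 0.43 with Smarcc1.6 (adjusted p = 0.0119) and -0.47 ± 0.28 with Smarcc1.7 (SD, n = 4 days, adjusted p = 0.201). The hairpins differed by -0.55 (SE 0.20, adjusted p = 0.989), which does not pass. The joint call was lost without any 1 of the 4 days (adjusted p between 0.0536 and 0.166) and without 9 of the 12 single libraries (between 0.0522 and 0.191), all but Nons of day 7 and Smarcc1.7 of days 4 and 7. For Smarcc1.6 it was lost without day 5 (0.0994), without day 6 (0.0781) and without Smarcc1.6 of day 5 (0.0557).

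Ephb3, a receptor known for boundary formation in the intestinal crypt, passed with Smarcc1.6 and not with Smarcc1.7. At Day0 it stood at 4.02 log2 CPM. Its levels on days 4 to 7 were 3.63, 4.57, 4.32 and 4.85 log2 CPM with Nons, 2.76, 3.34, 3.94 and 4.21 with Smarcc1.6, and 2.96, 3.89, 4.18 and 4.97 with Smarcc1.7. Smarcc1.6 was below Nons on all 4 days, whereas Smarcc1.7 was below it on days 4, 5 and 6. The difference was -0.78 ± 0.36 with Smarcc1.6 (adjusted p = 0.0132) and -0.34 ± 0.40 with Smarcc1.7 (SD, n = 4 days, adjusted p = 0.230), and the hairpins together gave -0.56 (SE 0.17, adjusted p = 0.0519). The direct test between hairpins gave -0.44 (SE 0.15, adjusted p = 0.989). The call for Smarcc1.6 was lost without day 5 or 6 (adjusted p between 0.0502 and 0.117) and without Smarcc1.6 of day 5 (0.0637).

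Sema4f, a membrane-bound semaphorin of neurons and glia, was the 1 gene of the 43 that passed as higher with knockdown. It stood at 2.15 log2 CPM at Day0, above all 12 later libraries. Its levels were -0.20, -0.11, -0.18 and 0.86 log2 CPM with Nons, 0.77, -0.17, 0.95 and 1.59 with Smarcc1.6, and 1.10, 0.44, 1.05 and 2.01 with Smarcc1.7. It was higher in 7 of 8 comparisons, the exception being Smarcc1.6 of day 5, at a geometric mean of 1.83 times the Nons level (log2 difference 0.87, SE 0.21, adjusted p = 0.0242). The difference was 1.06 ± 0.34 with Smarcc1.7 (adjusted p = 0.0460) and 0.69 ± 0.53 with Smarcc1.6 (SD, n = 4 days, adjusted p = 0.0933). The joint call was lost without day 4, 6 or 7 (adjusted p between 0.0587 and 0.149), and without Nons of any of those days or Smarcc1.6 of day 6 (between 0.0503 and 0.104). For Smarcc1.7 it was lost without any 1 of the days and without 10 of the 12 libraries (adjusted p up to 0.265). After thinning to the smallest depth, 0 of the 43 genes passed as higher with knockdown, so the joint call was also lost there. Sema4f had 19 to 204 reads in the 12 libraries.

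**Figure D4:**
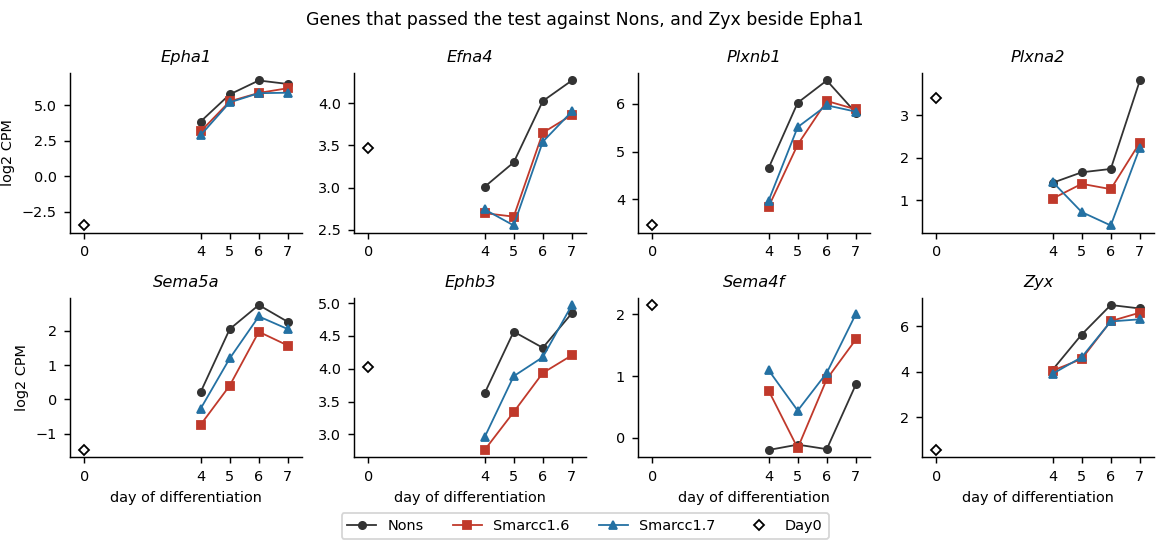
Levels in log2 CPM by day for the 7 genes that passed against Nons with both hairpins together or with 1 of them, and for Zyx, with Nons as black circles, Smarcc1.6 as red squares, Smarcc1.7 as blue triangles and Day0 as an open diamond. Each point is 1 library. For Epha1, Efna4 and Sema5a both knockdown points lie below Nons on all 4 days, for Plxnb1 on days 4, 5 and 6, and for Sema4f they lie above it except Smarcc1.6 of day 5.

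Taken by hairpin, 5 of the 43 genes passed with Smarcc1.6 (11.6%, against 9.30% of all tested genes) and 2 with Smarcc1.7 (4.65%, against 2.45%). With Smarcc1.6 these were Epha1, Efna4, Plxnb1, Sema5a and Ephb3, all lower, and with Smarcc1.7 they were Epha1, lower, and Sema4f, higher. The hairpins did not differ from each other for any of the 43 genes (0 passed in limma, 3 had an unadjusted p under 0.05, and 0 of all 13406 tested genes passed), which does not show that they act alike. Which genes passed depended on single days. With both hairpins together, 1 gene (Epha1) passed without day 6 (against 2.14% of all tested genes) and 2 without day 5 (against 2.88%). Without single libraries, 2 passed without Nons of day 5 (against 4.56%) or of day 6 (against 4.65%), 3 without Smarcc1.6 of day 6 (against 7.1%), and 10 without Nons of day 7 (against 11.7%). With Smarcc1.6, 0 passed without day 5 (against 1.33%) or day 6 (against 1.51%), 1 without its own library of day 5 (against 2.63%), 8 without day 7 (against 10.7%) and 11 without Nons of day 7 (against 11.7%). With Smarcc1.7, 0 passed without day 5 or day 6 (against 0.00746% each) or its own library of day 6 (against 0.0448%), 4 without day 4 (against 4.27%) and 6 without Nons of day 4 (against 7.85%).

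All 8 same-day differences were below 0 for 4 of the 43 tested genes (Epha1, Efna4, Sema5a and Epha7, 9.30%, against 7.10% of all tested genes) and above 0 for 0 of them (against 7.89%). Epha7, a receptor of the neural tube, was lower by 0.10 to 1.52 log2 in its 8 comparisons and did not pass (log2 difference -0.73, SE 0.23, adjusted p = 0.0577). Among the genes that did not pass were also the receptor with the highest level, Epha2 (-0.61, SE 0.20, adjusted p = 0.0725), and the ligands Sema6a (-0.77, SE 0.29, adjusted p = 0.109) and Efna5 (-0.68, SE 0.28, adjusted p = 0.139). Epha2 was lower in 6 of 8 comparisons, on days 5, 6 and 7 with each hairpin. The tested X-linked genes, Efnb1 and Plxna3, differed by -0.20 (SE 0.20, adjusted p = 0.560) and -0.10 (SE 0.14, adjusted p = 0.670).

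The differences were not alike on every day. Both hairpins lay below Nons for 24, 21, 27 and 13 of the 43 genes on days 4, 5, 6 and 7. These were 55.8%, 48.8%, 62.8% and 30.2%, where the shares of all tested genes were 41.3%, 44.1%, 43.7% and 32.5%. Both lay above Nons for 13, 13, 9 and 19 genes on those days, which were 30.2%, 30.2%, 20.9% and 44.2%, where all tested genes had 41.9%, 35.2%, 36.3% and 36.7%. A change of the difference with day was tested as an interaction and passed for 0 of the 43 genes and 0 of all tested genes (limma, with 3 of the 43 and 745 of all tested genes at an unadjusted p under 0.05). Nrp2, the co-receptor of Sema3f, measured 4.67, 3.70, 4.63 and 5.73 log2 CPM with Nons, 5.98, 4.35, 3.45 and 4.47 with Smarcc1.6, and 5.55, 4.18, 3.41 and 4.75 with Smarcc1.7. Its knockdown libraries were above Nons on days 4 and 5 and below it on days 6 and 7, with an interaction of -0.84 per day (SE 0.39, adjusted p = 0.906).

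**Figure D5:**
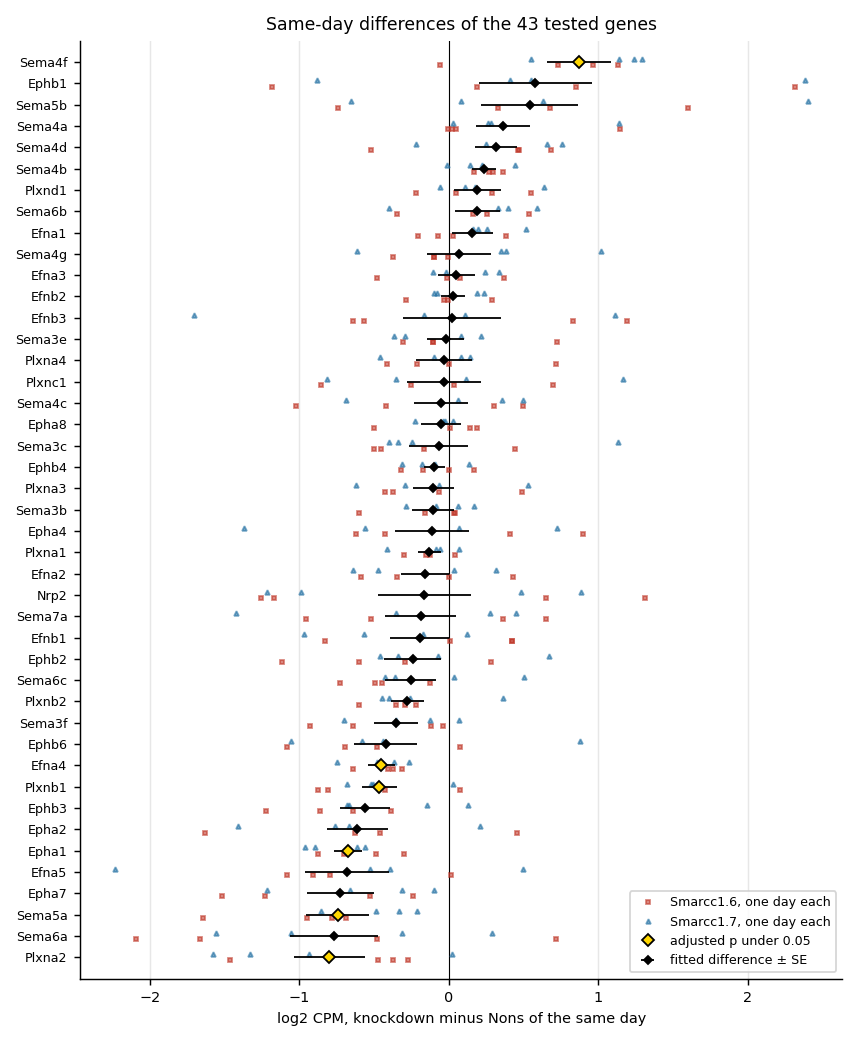
Differences from Nons of the same day in log2 CPM for the 43 tested genes, ordered by the fitted knockdown difference. Red squares are Smarcc1.6 and blue triangles Smarcc1.7 on single days, black diamonds the fitted difference with its SE, and yellow diamonds an adjusted p under 0.05. All 8 points lie left of 0 for Epha1, Efna4, Sema5a and Epha7, and the fitted value lies at 0.87 for Sema4f.

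Genes that act below these receptors were counted from lists. Of 28 tested effectors of Eph and ephrin signalling, 2 passed, both lower: Tiam1, a Rac activator (-0.34, SE 0.06, adjusted p = 0.00609), and Ptpn11, the phosphatase SHP2 (-0.22, SE 0.06, adjusted p = 0.0330). Of 27 tested semaphorin and plexin effectors, 1 passed: Farp1, which binds A-type plexins, was lower by 0.55 (SE 0.09, adjusted p = 0.00439). Of 17 tested actin regulators, 2 passed, both lower: Pak1 (-0.39, SE 0.10, adjusted p = 0.0270) and the GTPase Rac1 (-0.25, SE 0.07, adjusted p = 0.0417). In the netrin, Slit and RGM families 2 of 13 tested genes passed, both lower: Flrt3 (-0.82, SE 0.14, adjusted p = 0.00626), which also binds Unc5 receptors, and the netrin receptor Unc5b (-0.57, SE 0.12, adjusted p = 0.0132). Each of these 7 genes was below Nons in 8 of 8 comparisons, as were 7.1% of all tested genes. Both hairpins share the Nons library of a day in these comparisons, so the 8 are not independent. No gene of the 4 lists passed as higher. The shares that passed were 7.14%, 3.70%, 11.8% and 15.4% of the 4 lists, around the 11.6% of all tested genes (4.77% lower). The medians of the 4 lists were -0.07, -0.11, -0.14 and -0.06 log2, and that of all tested genes -0.01. With day, 13 of 28, 17 of 27, 6 of 17 and 6 of 13 genes of these lists rose, and 3, 2, 4 and 3 fell, where 34.9% of all tested genes rose and 25.6% fell.

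Markers of cell types moved with knockdown beside these genes. Of all tested genes, 6.88% passed as higher with knockdown and 4.77% as lower. Of the 6 pluripotent markers, 4 passed as higher with knockdown and 0 as lower: Klf4 (1.40), Zfp42 (1.11), Esrrb (1.00) and Dppa3 (0.99 log2). Nanog (0.74) and Pou5f1 (0.07) did not pass. The pluripotent list summed to between 1076 and 1672 CPM with Nons, 1337 and 2249 with Smarcc1.6, and 1066 and 1838 with Smarcc1.7. Of 3 tested fibroblast markers, Col1a2 (2.82) and Thy1 (0.83 log2) passed as higher, and Col1a1 (0.15) did not pass. Of those below the filter, Col3a1 was lower in 6 of 8 comparisons and Postn was higher in 5 of 8. Thy1 fell with day (slope -0.72), while Col1a1 (2.21) and Col1a2 (0.63 log2 CPM per day) rose. The fibroblast list summed to between 8.08 and 88.5 CPM with Nons, 32.9 and 187 with Smarcc1.6, and 19.1 and 188 with Smarcc1.7. Of 4 tested neural markers, Sox1 (2.07, higher in 6 of 8 comparisons, limma adjusted p = 0.0478) and Tubb3 (0.72, higher in 7 of 8) passed as higher. Pax6 (0.21, higher in 5 of 8 comparisons) and Nes (-0.41, lower in 6 of 8) did not pass, and Dcx, below the filter, was lower in 8 of 8. The list had sums between 68.6 and 332 CPM with Nons, 78.7 and 399 with Smarcc1.6, and 78.2 and 286 with Smarcc1.7. Of 4 tested endothelial markers, Pecam1 (1.18), which mESCs also express, passed as higher. Tek (0.34, higher in 6 of 8 comparisons) did not pass, nor did Kdr (-1.10) and Flt1 (-0.66), each lower in 6 of 8. Tie1 and Cdh5, below the filter, were higher in 7 of 8 and 4 of 8. The endothelial list had a median of -0.16 log2 and sums between 55.3 and 151 CPM over the 12 libraries. Among 3 tested genes each, T of the mesoderm (-2.50, lower in 6 of 8 comparisons), Tfap2a of the neural crest (-0.97, 8 of 8) and Sox17 of the endoderm (-0.88 log2, 7 of 8) were lower. In the mesoderm, Hand1 (0.26) and Gata4 (-0.36) did not pass. Neither did Foxd3 and Ngfr (0.04 each) of the neural crest, nor Gata6 (0.29) and Cxcr4 (-0.76) of the endoderm. Snai2 and Sox10 of the neural crest, below the filter, were higher in 7 of 8 and 5 of 8 comparisons. Also below it, Foxa2 and Afp of the endoderm were lower in 8 of 8 and 4 of 8. In the mesoderm, the untested Tbx6, Mixl1 and Mesp1 were lower in 8 of 8, 6 of 8 and 5 of 8. The mesoderm list summed to between 12.2 and 265 CPM with Nons, 16.8 and 57.3 with Smarcc1.6, and 14.2 and 36.1 with Smarcc1.7, and Mesp1 and Tbx6 were at 0 reads in some libraries. The neural crest list summed to between 12.3 and 84.8 CPM and the endoderm list to between 2.57 and 21.5 CPM over all groups, with Afp of the endoderm list at 0 reads in some libraries. None of 4 smooth muscle markers passed against Nons, and all 4 rose with day, from a summed minimum of 6.14 to a maximum of 977 CPM with Nons. The part of these cell types in the differences of the Eph, ephrin, semaphorin and plexin genes was not tested.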

How the data were processed

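The study prepared TruSeq libraries, and the submitters' processing notes name TopHat2 2.0.12 and the mm10 build. The authors counted reads per gene in Seqmonk and deposited log2 CPM, reads scaled to a common number of mapped reads, summed over alleles. The strand setting and which aligner each library had were not given in the sources used here. Values fell on whole reads (100% of low values, within 0.05 reads), and 0 reads was written as 0.9. The test took 13406 genes whose log2 CPM averaged 0 or more in the 12 later libraries, with limma 3.58.1 in R 4.3.3 (eBayes with a trend, Benjamini-Hochberg over all tested genes, threshold 0.05). Knockdown and hairpin fits had day as a factor, the slope had group as a covariate, and Day0 entered no test. The fits were tested on simulated data.

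Exon lengths and overlaps came from GENCODE M21, on the same build, with 53 of 53 genes matched. Genes were named by rule: every gene past the threshold against Nons, the 5 largest rises and all 4 falls with day, the leader of each class per kb, and up to 5 passing genes of each list. Other genes were named to complete a class or a list, and Epha5, Plxnb3, Epha4, Epha7, Epha8 and Zyx were chosen after their values were seen. Members and lists were chosen with earlier results of these data known. Alternatives were 2 other filters, other scalings, fits without day term or trend, thinning to the smallest depth, and leaving out hairpins, days or libraries.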

Additional observations from a re-analysis of the deposited data

Results flagged for a closer look

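In the 4 same-day differences of each hairpin, 1 day was tested for standing apart from the other 3 in the 43 tested genes. This gave 86 groups, of which 2 passed, where chance gives about 1 in 20. Sema4a with Smarcc1.6 was 1.15 log2 above Nons on day 7, while its other days lay between -0.01 and 0.05. Smarcc1.7 was also 1.14 above that Nons library, and between 0.03 and 0.29 above on other days. That Nons library stood at 1.09 log2 CPM, the lowest of the 4 Nons days. Sema3c with Smarcc1.7 was 1.14 log2 above Nons on day 7, while its other days lay between -0.40 and -0.25. With Smarcc1.6, Sema3c was 0.45 above on day 7, and its other days lay between -0.50 and -0.16. Neither gene passed the knockdown test, and the cause of either value was not tested.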

How the results depend on the processing

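Of the 43 tested genes, 6 passed for knockdown (against 11.6% of all tested genes), and this became 3 of 31 with a mean of at least 2 log2 CPM (against 10.4%). It became 0 with no day term, with Smarcc1.6 alone beside Nons (against 0.425%) and with Smarcc1.7 alone beside Nons (against 0%). With no day term 4 of all 13406 tested genes passed, as the spread between days then enters the error. For Smarcc1.6 the count of 5 became 0 with no day term (against 0% of all tested genes). For Smarcc1.7 the count of 2 (against 2.45%) became 0 with no day term (against 0%). It became 1 with no filter (against 1.87%), with the stricter filter (against 1.7%) or after thinning (against 1.75%). With day, 29 passed (against 60.5%), and 8 did in Nons alone (against 12.1%), where only 4 libraries remain. Leaving out single days or libraries gave 1 to 10 for knockdown, 0 to 11 for Smarcc1.6, 0 to 6 for Smarcc1.7, 25 to 31 for day, and 0 throughout for hairpins against each other and for the interaction. For the 7 genes named for knockdown, refitted for knockdown and each hairpin, and the 9 named for day, refitted for day, 710 values were obtained, of which 0 reversed, 563 stayed on their side of the threshold, 138 lost it and 9 gained it. Outside these, the slope of Plxna2 turned to -0.08 without day 7 and that of Sema4c to -0.01 without day 4, neither past the threshold. Depth limits genes near 3 reads, such as Epha5 and Plxnb3, and such floors cover counting error only.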
